A study of Mus musculus with 16 samples.

Results

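Embryoid bodies (EBs), the aggregates in which pluripotent stem cells differentiate, were compared with the induced pluripotent stem cells (iPSCs) of the same study. All 16 mouse libraries of polyadenylated RNA took part, 4 of them titled EB (KIDEB, KIVEB, KIXDEB and KIXVEB) and 12 of iPSCs with titles ending in 1, 4 or 10. Levels are in FPKM, fragment counts divided by transcript length and by library size. Of 23284 genes in the table, 13895 reached 1 FPKM in at least 2 of the 16 libraries and were tested.

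Every library, EB or iPSC, carries the genotype ColA1_miR203; Rosa26rtTA, a doxycycline-inducible miR-203 transgene with its transactivator at Rosa26, and every library is listed with DOX for 5 to 7 days. The iPSCs were reprogrammed from embryonic fibroblasts and kept on feeders, and the EBs formed in hanging drops and were taken after 7 days. The study followed iPSCs from before induction to EBs. The codes KI and KIX, D and V, and 1, 4 and 10 are undefined in the labels, so no treatment or day was given to them here, nor do the labels say how many clones or separate cultures were used. The p-values measure the spread between the KI and the KIX library of the same letter and ending. That spread may be technical or may hold a difference between the prefixes. In bulk RNA, fewer cells of a type and less RNA per cell cannot be told apart.

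In mouse EBs an outer layer of primitive endoderm matures into visceral endoderm, an epithelium that absorbs protein through endocytic receptors and lysosomes and secretes plasma proteins, as the fetal liver does later. The cells inside can pass through an epiblast-like state into mesoderm, the source of heart muscle and of the first blood cells. Feeders are commonly fibroblasts, which deposit collagen matrix and secrete chemokines, and hanging drops usually hold no feeder layer.

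The 4 EB libraries had 12117 to 12501 genes at 1 FPKM or more, against 12154 to 12375 in the iPSC libraries. Summed FPKM ranged from 612598 to 664357 in EBs and from 641890 to 724350 in iPSCs. The depth of sequencing is unknown. Mir203 itself was listed at 0 in KIDEB and KIXVEB, at 90.1 FPKM in KIVEB and at 212 in KIXDEB. Among the iPSC libraries it stood between 1728 and 2254 FPKM in the 4 KIX libraries numbered 1 and 4 and was listed at 0 in the other 8.

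In EBs endoderm, epithelial and heart genes rose, most pluripotency genes fell by a part of their level, and fibroblast and chemokine genes fell furthest. Genes count as risen or fallen where limma's adjusted p was under 0.05 and the change was at least 2-fold on the log2(FPKM + 1) scale. By that rule 1941 genes rose (14.0% of those tested) and 1617 fell (11.6%). The test alone called 10960 genes (78.9%, of all tested genes 40.8% higher and 38.1% lower), which is why a size was asked as well. All 4 EB libraries lay above all 12 iPSC libraries in 31.0% of the tested genes and below all of them in 27.5%. The median change over all tested genes was 0.02 on the log2 scale. All log2 changes below are EB minus iPSC on the log2(FPKM + 1) scale with their standard error, and they understate the change of genes at low levels.

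**Figure D1:**
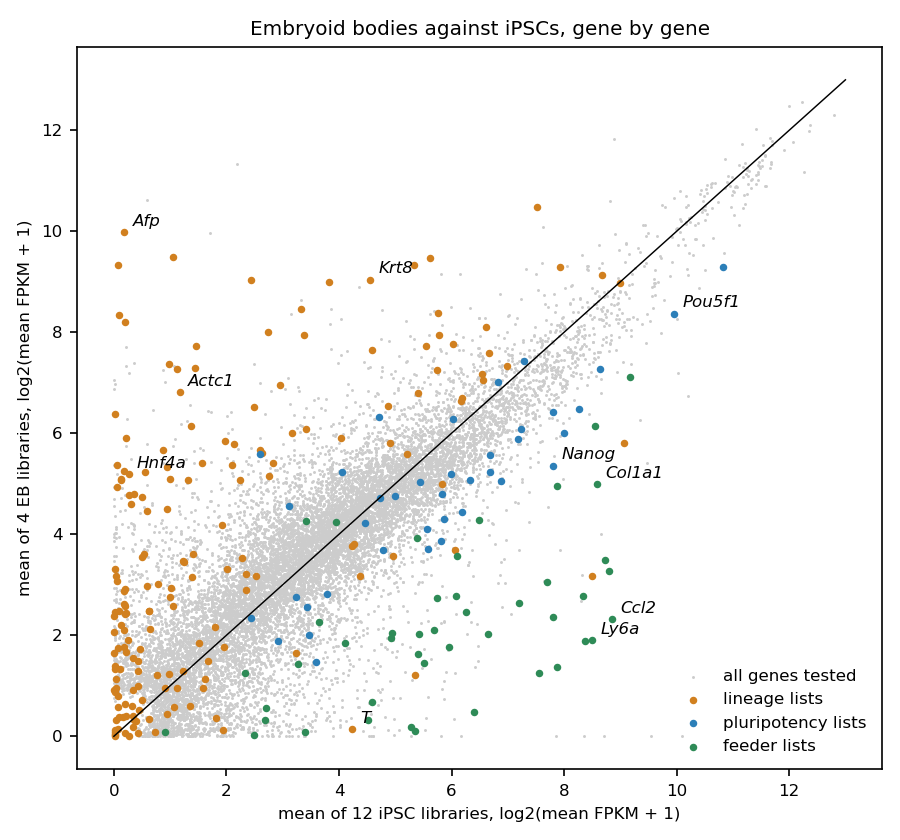
Mean level of each gene in the 12 iPSC libraries (x axis) against the 4 EB libraries (y axis), both as log2(mean FPKM + 1), with lineage, pluripotency and feeder-type list genes coloured and all other genes in grey. Lineage genes such as Afp stand far above the diagonal, pluripotency genes a little below it, and fibroblast and chemokine genes such as Ccl2 near the bottom.

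Of the 150 tested genes in 14 lineage lists, 101 rose and 10 fell, with a median change of 1.81. Of the 39 tested genes in 3 pluripotency lists, 4 rose and 22 fell, with a median of -1.11. Of the 45 tested fibroblast, chemokine and cytokine genes, 0 rose and 42 fell, with a median of -3.68. Without both KI EB libraries the last of these counts became 2 risen (Pdgfra and Cxcl12) and 39 fallen, and with VEB replicate 1 (KIVEB) alone left out 1 gene, Pdgfra, rose. Over every list, those of other cell types included, 255 of 286 genes in the table reached the level to be tested. Of the 150 lineage genes 50 reached it in the EB but not in the iPSC libraries. These include 15 of 22 plasma protein genes, 6 of 13 endoderm factors, 4 of 6 cardiac factors and 7 of 16 contraction genes. Of the 45 fibroblast, chemokine and cytokine genes 10 reached it in the iPSC but not in the EB libraries. Chemokine and cytokine genes make up 7 of these, out of 13 tested. Such genes could hardly differ in the other direction, so these counts describe the tested genes and lend no support of their own.

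Endoderm factors were among the gains. Of 13 tested transcription factors of endoderm, 12 rose and 0 fell, with a median change of 3.81. Gata4, a zinc-finger factor that specifies primitive endoderm, stood at 148, 141, 142 and 181 FPKM in KIDEB, KIVEB, KIXDEB and KIXVEB, against a lowest, median and highest iPSC level of 0.337, 0.828 and 3.31. It rose by 6.23 ± 0.21 (adjusted p = 1.21e-09). Hnf4a, the nuclear receptor that drives liver and visceral endoderm genes, was at 36.5, 37.9, 33.7 and 33.9 FPKM in the EB libraries and at 0.0795, 0.188 and 0.314 in iPSCs (lowest, median, highest). Its change was 4.93 ± 0.06 (adjusted p = 6.79e-13). For both factors the EB libraries lay close together and well above every iPSC library.

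Sox17 (44.7 to 58.5 FPKM in EBs, at most 2.53 in iPSCs) and Foxa1 (23.2 to 29.8, at most 0.427) also rose without overlap. Both are DNA-binding factors of early endoderm. Onecut1, a factor of later liver development, was uneven, with 0.749, 0.238, 4.05 and 4.47 FPKM in the EB libraries and at most 0.109 in iPSCs.

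The plasma proteins that visceral endoderm and liver secrete followed, with 18 of 22 tested genes risen, 0 fallen and a median change of 2.55. Afp, the fetal counterpart of serum albumin, reached 653, 619.8, 1519 and 1263 FPKM in KIDEB, KIVEB, KIXDEB and KIXVEB, while the iPSC libraries had 0, 0.0432 and 0.426 as lowest, median and highest. It rose by 9.70 ± 0.21 (adjusted p = 4.62e-11), and both KIX EB libraries exceeded both KI EB libraries. Ttr, which carries thyroid hormone and retinol, showed the same order, at 468, 422, 886 and 815 FPKM, with at most 0.228 in iPSCs. Rbp4, the retinol carrier of plasma, was at 379.8, 232, 1319 and 959 FPKM, against 0.744 to 1.61. The lipoprotein genes Apob (244 to 369 FPKM) and Apoa1 (240.0 to 399) differed less among EB libraries and stood at or under 0.361 in every iPSC library.

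In 18 of the 22 plasma protein genes both KI EB libraries were lower than both KIX EB libraries, an order that 27.4% of all tested genes had. Without the KIX EB libraries 14 of the genes rose, and without the KI EB libraries 21. Alb and Trf, chosen after their values were seen, were uneven. Alb, serum albumin, was at 0.835, 0, 3.24 and 24.3 FPKM in the EB libraries and at 0.164 to 1.97 in iPSCs, so the groups overlapped and it did not pass (1.19 ± 0.61, adjusted p = 0.0961). Trf, transferrin, was at 2.70, 1.09, 9.31 and 22.9 FPKM, against 2.03 to 4.58 in iPSCs (adjusted p = 0.189). For both, KIXVEB was the highest library, and both passed without KIVEB.

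Genes of uptake and of the lysosome were higher as well. Of 11 genes of visceral endoderm uptake and signalling, 10 rose and 1 fell, with a median of 3.86. Dab2, an adaptor for endocytic receptors, was at 238, 289, 220.3 and 277 FPKM in the EB libraries and at 2.97 to 10.6 in iPSCs, a change of 5.32 ± 0.12 (adjusted p = 8.66e-11). Cubn, the receptor cubilin, was at 14.3, 19.3, 24.7 and 49.5 FPKM, against at most 1.14. Ihh, a signal from visceral endoderm to the cells beneath it, was at 26.8 to 40.0 FPKM, against at most 0.197. Rhox5, an X-linked homeobox gene, was the member that fell: from 429 to 781 FPKM in iPSCs it was at 57.2, 65.8, 34.9 and 62.1 in EBs (-3.28 ± 0.13, adjusted p = 3.88e-09).

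Of 13 lysosome genes 8 rose and 0 fell, with a median of 1.40. Ctsh, a lysosomal cathepsin, was at 511, 528, 521 and 525 FPKM in the EB libraries and at 2.86, 4.42 and 6.23 in iPSCs (lowest, median, highest). It rose by 6.62 ± 0.10 (adjusted p = 2.08e-12), and the 4 EB libraries were nearly level. Lgmn, which encodes legumain, was at 592 to 735 FPKM, against 32.2 to 53.2, and Ctsl at 1341 to 1519, against 149 to 217. The mean of log2(FPKM + 1) over the list was between 8.05 and 8.12 in EBs and between 5.72 and 6.29 in iPSCs, the narrowest EB range among the lineage lists.

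Epithelial genes rose with the endoderm genes. Of 9 simple epithelium genes 6 rose and 1 fell, with a median of 3.97. Krt8, a keratin of simple epithelia, was at 542, 582, 478 and 508 FPKM in the EB libraries, against 2.92, 23.5 and 49.4 in iPSCs, a change of 4.89 ± 0.28 (adjusted p = 6.17e-08). Vil1, villin of the brush border, was at 52.1 to 71.1 FPKM, against at most 0.268. Cldn6, a tight-junction claudin, was at 631 to 774 FPKM, against 21.1 to 71.5. Cdh1 (145 to 173 FPKM in EBs, 100.3 to 151 in iPSCs), the E-cadherin that iPSCs also need, changed by less than 2-fold. Cdx1, a homeobox gene, was the member that fell, from 1.63 to 4.81 FPKM in iPSCs to at most 0.151 in EBs.

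Of 11 parietal endoderm and basement membrane genes 6 rose and 1 fell, with a median of 1.52. Srgn, a proteoglycan core protein, was at 178, 246, 100.3 and 134 FPKM in the EB libraries and at 0.411 to 1.89 in iPSCs (6.35 ± 0.21, adjusted p = 8.92e-10). Lama1, a laminin chain, was at 32.9, 12.1, 25.9 and 90.7 FPKM, against 1.42 to 7.27, and Col4a1, a basement membrane collagen, at 238 to 506, against 32.8 to 77.3. KIXVEB was the highest EB library in 9 of the 11 genes, with no share over all tested genes counted. Thbd, thrombomodulin, which parietal endoderm is known to make, went the other way, at 1.09 to 1.70 FPKM in EBs and 19.1 to 67.6 in iPSCs (-4.06 ± 0.15, adjusted p = 2.75e-09). Sparc, common to parietal endoderm and fibroblasts, was at 316 to 748 FPKM in EBs and 367 to 759 in iPSCs, with no call.

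Retinoid genes split. Of 10 tested, 5 rose and 3 fell, with a median of 0.88, and 3 rose with 1 FPKM asked in 4 or more libraries, where Rbp2 and Stra6 were not tested. Cyp26a1, which breaks down retinoic acid, was at 165, 147, 81.8 and 97.1 FPKM in the EB libraries and at 0.184 to 17.7 in iPSCs, a change of 4.43 ± 0.27 (adjusted p = 9.35e-08). Rdh10, a retinol dehydrogenase, was at 27.9 to 38.5 FPKM, against 2.96 to 5.28. Crabp1, a cytoplasmic retinoic acid binding protein, fell instead, from 184, 326 and 597 FPKM in iPSCs (lowest, median, highest) to 6.92, 7.07, 10.3 and 7.58 in EBs (-5.25 ± 0.11, adjusted p = 3.68e-11). Fibroblasts can express Crabp1 as well.

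**Figure D2:**
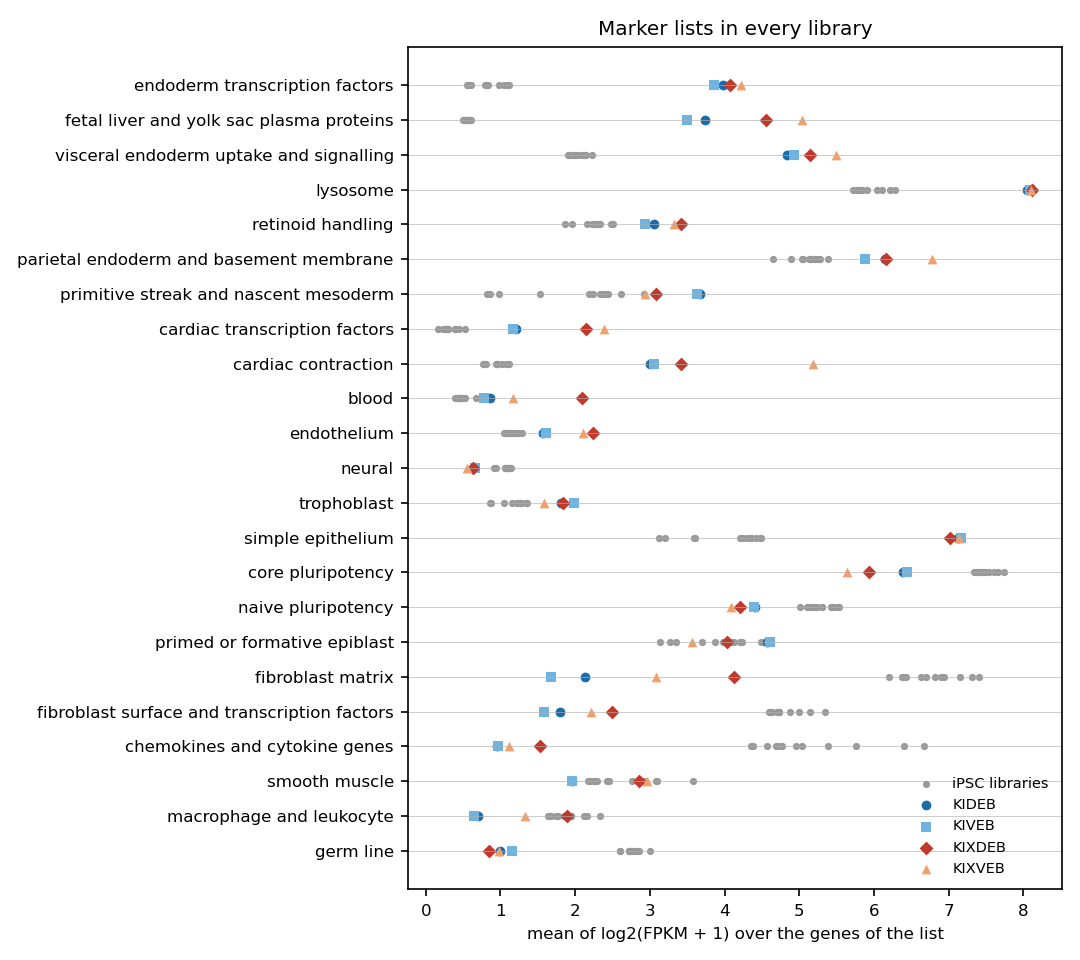
Mean of log2(FPKM + 1) over the genes of each marker list (x axis) in every library, with iPSC libraries in grey and the 4 EB libraries each in its own colour and marker. The lysosome and simple epithelium lists set the EB libraries apart from iPSCs and close to each other, the cardiac contraction list spreads from 3.0 to 5.18 with KIXVEB highest, and the fibroblast matrix list runs from 1.68 to 4.13 in EBs, below the iPSC range of 6.20 to 7.41.

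Mesoderm genes were gained unevenly. Of 10 tested genes of primitive streak and nascent mesoderm, 7 rose and 1 fell, with a median of 2.07. Mixl1, a homeobox gene of the streak, was at 75.2, 75.4, 42.0 and 33.5 FPKM in the EB libraries, against 0.145, 3.11 and 8.47 in iPSCs (lowest, median, highest). It rose by 4.08 ± 0.28 (adjusted p = 2.29e-07). Eomes (30.9 to 64.0 FPKM, against 1.48 to 10.9), Gsc (19.1 to 61.5, against 0.530 to 15.8) and Lhx1 (27.2 to 79.0, against 0.0401 to 12.5) rose too, and all 3 are also known from anterior visceral endoderm.

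T (brachyury), the defining factor of the streak, was the member that fell. It stood at 0.119, 0.0997, 0.0474 and 0.164 FPKM in the EB libraries and at 0.368, 19.6 and 35.1 in iPSCs (-3.39 ± 0.27, adjusted p = 6.87e-07). Mesp1, the early marker of cardiac mesoderm, was listed at 0 in all 4 EB libraries and at no more than 0.743 in iPSCs, too low to be tested. In 8 of the 10 tested streak genes both KI EB libraries exceeded both KIX EB libraries, an order held by 36.7% of all tested genes.

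Most heart muscle genes, 13 of 16 tested, were higher in every EB library than in any iPSC library. This order held in 31.0% of all tested genes. Of the 16 genes 7 reached the level to be tested in the EB but not in the iPSC libraries. Those 7 could hardly be lower in EBs. Of 16 tested genes of cardiac contraction 15 rose and 0 fell, with a median of 2.89. Actc1, the alpha actin of heart muscle, was at 39.2, 40.4, 57.1 and 310.3 FPKM in KIDEB, KIVEB, KIXDEB and KIXVEB, against 0.146, 1.15 and 2.82 in iPSCs. It rose by 5.13 ± 0.39 (adjusted p = 4.91e-07), and by 4.40 without KIXVEB (VEB replicate 2). All 16 genes were highest in KIXVEB, and how often this held over all tested genes was not counted. Without KIXVEB 14 of the 16 genes rose, and without both KIX EB libraries 13.

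Among the other sarcomere genes, Tnnt2, cardiac troponin T, was at 12.9, 17.2, 28.7 and 87.7 FPKM in EBs and at most 0.703 in iPSCs. Myh6, a heavy chain of cardiac myosin, was at 9.12, 11.0, 14.6 and 68.6 FPKM, against at most 0.634, and Myl3, a light chain, at 16.2, 17.1, 16.4 and 99.4, against at most 0.384. The changes without KIXVEB were 3.11 in place of 3.75 for Myh6 and 3.96 in place of 4.58 for Myl3. In the other 3 EB libraries these genes still stood above every iPSC library.

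The Actc1 promoter is printed as that of the gene with the largest change in the contraction list (RefSeq, GRCm38.p6, chr2:114052826-114053125, minus strand, written along the gene). The window runs from 250 bases before to 50 bases after the annotated start, and both strands were searched. Capitals mark a CArG box, the binding sequence of serum response factor, at position -47 from the start.
Actc1: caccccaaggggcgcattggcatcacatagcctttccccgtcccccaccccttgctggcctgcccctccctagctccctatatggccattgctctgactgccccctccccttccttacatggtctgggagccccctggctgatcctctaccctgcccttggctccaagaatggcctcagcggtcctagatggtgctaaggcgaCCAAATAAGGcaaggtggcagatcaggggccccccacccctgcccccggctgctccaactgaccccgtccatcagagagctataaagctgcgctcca
This motif was present in 3 of 17 cardiac contraction genes with a window and in 1.63% of all 32851 windows. Here and below list counts are by gene and shares by window. A gene can have several windows, so the units are unlike. A match describes these letters only.

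Of 6 tested cardiac transcription factors 5 rose and 0 fell, with a median of 1.75. Nkx2-5, an early factor of the heart, was at 1.19, 1.40, 3.35 and 12.3 FPKM in the EB libraries and at most 0.238 in iPSCs (1.98 ± 0.34, adjusted p = 0.000277). Hand1 and Tbx20 rose too, with 22.2 and 6.95 FPKM in KIXDEB as their highest levels. Both KIX EB libraries exceeded both KI EB libraries in all 6 factors, against 27.4% of all tested genes. Hand2, at 1.65, 1.63, 13.7 and 9.46 FPKM, overlapped the iPSC range of 0.498 to 1.73. Leaving out either KIXDEB (DEB replicate 2) or both KIX EB libraries left 3 risen factors, since Hand2 lost its call and Isl1 its test.

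Blood genes gave 4 risen and 0 fallen of 8 tested, with a median of 1.39, and 2 risen without KIXDEB or without KIXVEB. Hbb-y, an embryonic beta-type globin, was at 0.673, 0.0943, 29.6 and 1.65 FPKM in KIDEB, KIVEB, KIXDEB and KIXVEB and at most 0.270 in iPSCs, a change of 1.76 ± 0.55 (adjusted p = 0.0129). Hbb-bh1 was at 0.317, 0, 24.1 and 0.936 FPKM and Hba-x at 0.124, 0, 24.4 and 1.49, with iPSC maxima of 1.30 and 1.70. The globin levels rest on KIXDEB, and without it neither Hbb-y nor Hbb-bh1 reached 1 FPKM in enough libraries to be tested. Gata1, the erythroid factor, had another pattern, at 12, 16.5, 5.63 and 6.13 FPKM in EBs and 0.588 to 2.65 in iPSCs.

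Endothelial genes gave 3 risen and 0 fallen of 9, with a median of 0.48. Flt1, a VEGF receptor that extraembryonic cells express as well, was at 93.0, 97.5, 74.2 and 99.6 FPKM in the EB libraries and at 2.89 to 8.82 in iPSCs (4.07 ± 0.10, adjusted p = 1.41e-10). Cdh5, the cadherin of endothelial junctions, was at 1.56, 1.98, 5.12 and 4.62 FPKM, against at most 0.251. Trophoblast genes gave 3 risen and 1 fallen of 9, with a median of 0.82, and 5 risen, with Ascl2 and Tpbpa added, without KIXDEB or without KIXVEB. Cdx2 was at 3.28, 2.34, 13.9 and 7.82 FPKM, against at most 1.14 in iPSCs.

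Neural genes were not gained. Of 14 listed genes the table held 13, and 4 reached the level to be tested, of which 0 rose and 2 fell, with a median of -1.14. Tubb3, a neuronal tubulin, was at 13.7, 13.8, 11.5 and 8.24 FPKM in the EB libraries and at 34.7, 69.9 and 81.3 in iPSCs (-2.37 ± 0.20, adjusted p = 1.15e-06). Nes, nestin, was at 1.63 to 2.85 FPKM, against 5.04 to 12.2. Pax6 and Sox1, which define early neuroectoderm, stayed under 1 FPKM in every library and were not tested.

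Genes that rose from under 1 FPKM in all 12 iPSC libraries to 1 FPKM or more in all 4 EB libraries, called switched on, numbered 312 (2.25% of those tested), and switched-off genes, the mirror image, 306 (2.20%). Of the switched-on genes 9 are plasma protein genes, 6 cardiac contraction genes, 5 endoderm factors and 4 visceral endoderm genes of the lists. Outside the lists Ptgds, a prostaglandin D synthase, was at 154 to 286 FPKM in EBs, Clic6 at 153 to 172 and the serine protease Tmprss2 at 136 to 159, each at most 0.485 in iPSCs. Tff3, a mucosal trefoil peptide, was the most uneven of the 10 highest, at 56.9, 20.0, 309.5 and 116 FPKM.

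Among the 6 largest rises, 3 genes reached 1 FPKM in some iPSC library and so did not count as switched on. S100g, a calcium-binding protein of absorbing epithelia, was at 1082, 962, 2324 and 1932 FPKM in the EB libraries and at 0 to 1.21 in iPSCs (9.99 ± 0.25, adjusted p = 1.25e-10). Spink3, a secreted trypsin inhibitor, was at 3241, 3158, 1915 and 1982 FPKM, against 1.80 to 6.71. Pga5, a pepsinogen, was at 1301, 1224, 864 and 612 FPKM, against 0.757 to 4.06. S100g was higher in both KIX EB libraries, and Spink3 and Pga5 in both KI EB libraries.

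**Figure D3:**
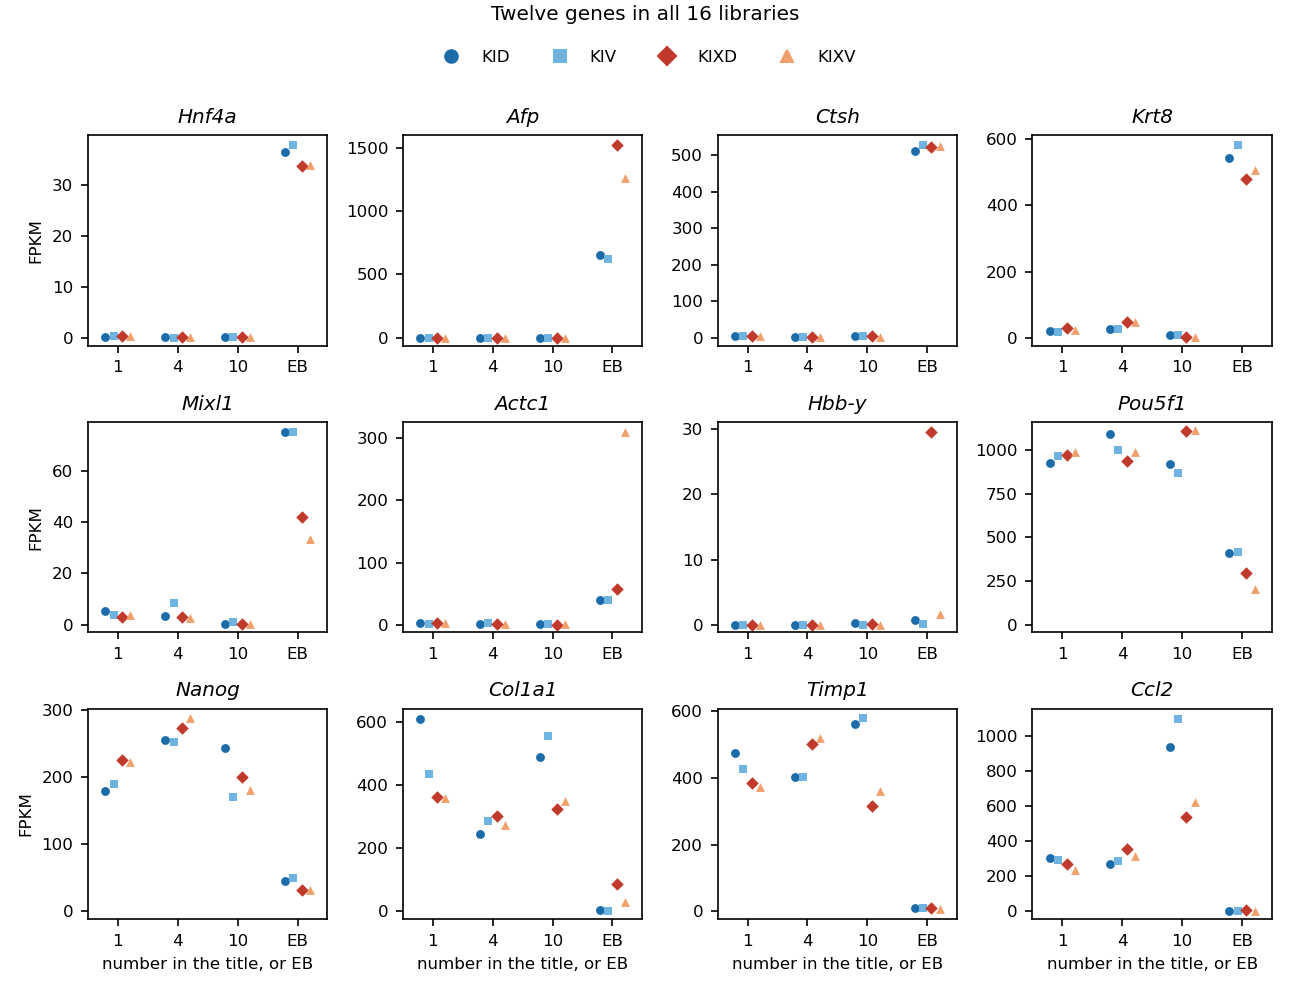
Level in FPKM (y axis, linear, 1 panel a gene) of 12 genes in all 16 libraries, ordered along the x axis by the number in the title or EB, with a marker for each prefix and letter. Hnf4a and Ctsh are level across the 4 EB libraries, Actc1 stands out in KIXVEB, Hbb-y in KIXDEB, and Col1a1 is higher in the KIX than in the KI EB libraries.

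Pluripotency genes fell by a part of their level. Of 14 core genes 12 fell and 0 rose, with a median change of -1.54. Pou5f1, which encodes Oct4, was at 412, 413, 293 and 203 FPKM in the EB libraries and at 869, 980.1 and 1113 in iPSCs (lowest, median, highest). It fell by 1.63 ± 0.16 (adjusted p = 3.39e-06), which left 41.6%, 41.7%, 29.6% and 20.5% of the iPSC mean. Nanog was at 45.8, 50.04, 32.4 and 31.9 FPKM, against 171, 224 and 289, a change of -2.46 ± 0.13 (adjusted p = 2.34e-08). Sox2 was at 70.7, 71.5, 51.8 and 40.2 FPKM, against 124, 142 and 175 (-1.31 ± 0.14, adjusted p = 6.17e-06). For all 3 factors every EB library lay below every iPSC library, and KIXDEB and KIXVEB were the lowest.

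A promoter of Nanog is shown as that of the core gene with the largest fall (RefSeq, GRCm38.p6, chr6:122707239-122707538, plus strand). Capitals mark a POU octamer, ATGCAAA, read here from the opposite strand, at position -75.
Nanog: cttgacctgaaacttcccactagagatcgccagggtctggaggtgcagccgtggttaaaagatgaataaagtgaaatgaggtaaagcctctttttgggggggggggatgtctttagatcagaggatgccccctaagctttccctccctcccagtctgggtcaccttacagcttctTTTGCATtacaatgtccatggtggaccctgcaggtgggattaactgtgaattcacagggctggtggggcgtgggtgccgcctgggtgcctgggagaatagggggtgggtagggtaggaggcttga
The octamer was found in 3 of 8 core genes with a window and in 4.63% of all windows, again by gene and by window. A second window of Nanog in the table, with a start further downstream, holds the same match.

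In 13 of the 14 core genes both KI EB libraries exceeded both KIX EB libraries, against 36.7% of all tested genes. The naive list gave 8 fallen and 1 risen of 14, with a median of -1.08. Prdm14, a regulator of the naive state, was lowest relative to iPSCs, at 2.21, 2.10, 1.46 and 1.34 FPKM, against 8.49 to 16.1 (-2.11 ± 0.12, adjusted p = 4.62e-08). Esrrb, an orphan nuclear receptor, was at 26.7 to 44.0 FPKM, against 83.2 to 123. Tbx3, which primitive endoderm also uses, was the naive gene that rose, at 33.1 to 41.2 FPKM in EBs and 9.97 to 27.7 in iPSCs. Klf4 overlapped, at 20.0 to 52.4 FPKM in EBs and 27.8 to 65.6 in iPSCs.

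Sall4 and Lin28a were the core genes with no call. Sall4 was at 65.7 to 87.6 FPKM in EBs and 52.4 to 77.3 in iPSCs, and Lin28a at 107 to 139, against 86.9 to 145. Both are also expressed in early endoderm. Over the 28 core and naive genes, 20 fell and 1 rose, and the median share of the iPSC mean left was 43.7% in KIDEB, 44.6% in KIVEB, 35.2% in KIXDEB and 25.4% in KIXVEB. The lowest share of any of the 28 genes in any EB library was 12%, for Prdm14 in KIXVEB.

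Genes of the primed or formative epiblast gave 3 risen and 2 fallen of 11, with a median of -0.02. The fallen genes were Sfrp2 and Zic5, and Zic5 lost its call without KIXDEB or KIXVEB and without some single iPSC libraries. Without KIDEB or KIVEB 3 genes fell, with Pou3f1 added. Fgf5, the growth factor that marks primed epiblast, was at 64.5, 68.3, 29.9 and 24.8 FPKM in the EB libraries and at 0.885, 4.15 and 11.7 in iPSCs, a change of 3.09 ± 0.38 (adjusted p = 1.85e-05). Otx2, a factor of epiblast and of anterior visceral endoderm, was at 111, 104, 54.2 and 47.5 FPKM, against 12.4 to 43.2. Cer1, a Nodal antagonist from anterior visceral endoderm, was at 26.0, 39.7, 16.9 and 7.88 FPKM, against 0 to 24.2 (1.90 ± 0.38, adjusted p = 0.000853). Against the iPSC libraries numbered 4 alone its change was 0.42 (adjusted p = 0.436), and with D and V averaged the adjusted p was 0.152. Both KI EB libraries exceeded both KIX EB libraries in 10 of the 11 genes, against 36.7% of all tested genes. Dnmt3b (113 to 225 FPKM in EBs, 68.8 to 239.6 in iPSCs) had no call.

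The third group, the fibroblast, chemokine and cytokine genes, was lost to a much larger degree. All 18 fibroblast matrix genes fell, with a median of -3.71. Col1a1, a chain of type I collagen, was at 3.93, 1.57, 86.8 and 30.6 FPKM in KIDEB, KIVEB, KIXDEB and KIXVEB and at 245, 353 and 610.1 in iPSCs (lowest, median, highest). Its change was -4.75 ± 0.71 (adjusted p = 9.52e-05), and it ranged from -6.69 without the KIX EB libraries to -2.81 without the KI EB libraries. Timp1, a secreted inhibitor of metalloproteinases, was at 9.92, 9.36, 9.54 and 5.996 FPKM, against 316 to 578 (-5.51 ± 0.17, adjusted p = 7.23e-10). Mgp, matrix Gla protein, was at 1.22 to 4.11 FPKM, against 113 to 693. Col1a1 was thus more uneven across the EB libraries than Timp1, for which KIXVEB was the lowest.

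Of 14 fibroblast surface and transcription factor genes 12 fell and 0 rose, with a median of -2.35. Ly6a, which encodes the surface protein Sca-1, was at 2.92, 2.68, 3.60 and 1.71 FPKM in the EB libraries, against 174, 346 and 729 in iPSCs (-6.49 ± 0.18, adjusted p = 2.41e-10). Thy1 was at 2.37 to 4.31 FPKM, against 76.6 to 157, and Prrx1, a homeobox factor of mesenchyme, at 0.370 to 0.871, against 15.8 to 34.9. Pdgfra, which primitive endoderm also expresses, was at 11.3, 12.5, 19.6 and 29.9 FPKM in EBs and at 7.40 to 11.5 in iPSCs, below the 2-fold size (0.77 ± 0.20, adjusted p = 0.00418). Fap was low in both, at most 0.0835 FPKM in EBs and 0.663 to 1.55 in iPSCs.

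Chemokine and cytokine genes gave 12 fallen and 0 risen of 13, with a median of -4.11, the lowest of the lists. Ccl2, which attracts monocytes, was at 2.68, 1.84, 8.20 and 3.32 FPKM in the EB libraries and at 237, 309.6 and 1097 in iPSCs, a change of -6.47 ± 0.25 (adjusted p = 2.75e-09). Ccl7 was at 1.06 to 2.20 FPKM, against 129 to 527, and Cxcl5, which attracts neutrophils, at 0.0320 to 0.217, against 24.0 to 66.6. Il1rl1, the receptor of interleukin-33, was at 0.298 to 0.547 FPKM, against 30.8 to 153. Cxcl12, which mesenchymal cells make, had no call, at 7.41, 4.26, 33.7 and 26.7 FPKM in EBs and 8.85 to 23.9 in iPSCs. It was lower than all iPSC libraries in both KI EB libraries and higher in both KIX EB libraries.

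A promoter of Cxcl1, a neutrophil chemokine of this list at 0.173 to 0.289 FPKM in EBs and 12.5 to 42.2 in iPSCs, is shown with the NF-kB site that 5 of 9 list genes with a window hold and 4.51% of all windows. It was chosen after its values were seen (RefSeq, GRCm38.p6, chr5:90890995-90891294, plus strand). Capitals mark overlapping matches on the plus strand at position -71 and on the minus strand at position -70.
Cxcl1: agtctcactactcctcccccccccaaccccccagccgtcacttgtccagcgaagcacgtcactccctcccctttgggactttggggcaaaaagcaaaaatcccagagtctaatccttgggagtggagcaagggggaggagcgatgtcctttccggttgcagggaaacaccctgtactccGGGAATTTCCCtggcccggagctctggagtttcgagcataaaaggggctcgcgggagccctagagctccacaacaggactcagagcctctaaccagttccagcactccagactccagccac

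The median share of the iPSC level that was left was lower for these lists than for the core and naive genes in every EB library. The ranges overlapped. Of the 42 genes in these lists with at least 5 FPKM in iPSCs, 5 kept 10% or more in KIDEB and 6 in KIVEB. In KIXDEB 19 did so and in KIXVEB 14. Over the fibroblast matrix genes the median share was 2.73% in KIDEB, 1.81% in KIVEB, 19.1% in KIXDEB and 8.44% in KIXVEB. Over the fibroblast surface and factor genes with at least 5 FPKM in iPSCs it was 5.11%, 3.35%, 10.9% and 7.84%. Over the chemokine and cytokine genes it was 0.696%, 0.925%, 1.13% and 0.709%. Under 5% of the iPSC mean remained in every EB library for 17 of the 45 genes, 9 of them chemokine and cytokine genes, and for 0 of the 39 pluripotency genes. Among all 1617 fallen genes 161 had so little left.

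**Figure D4:**
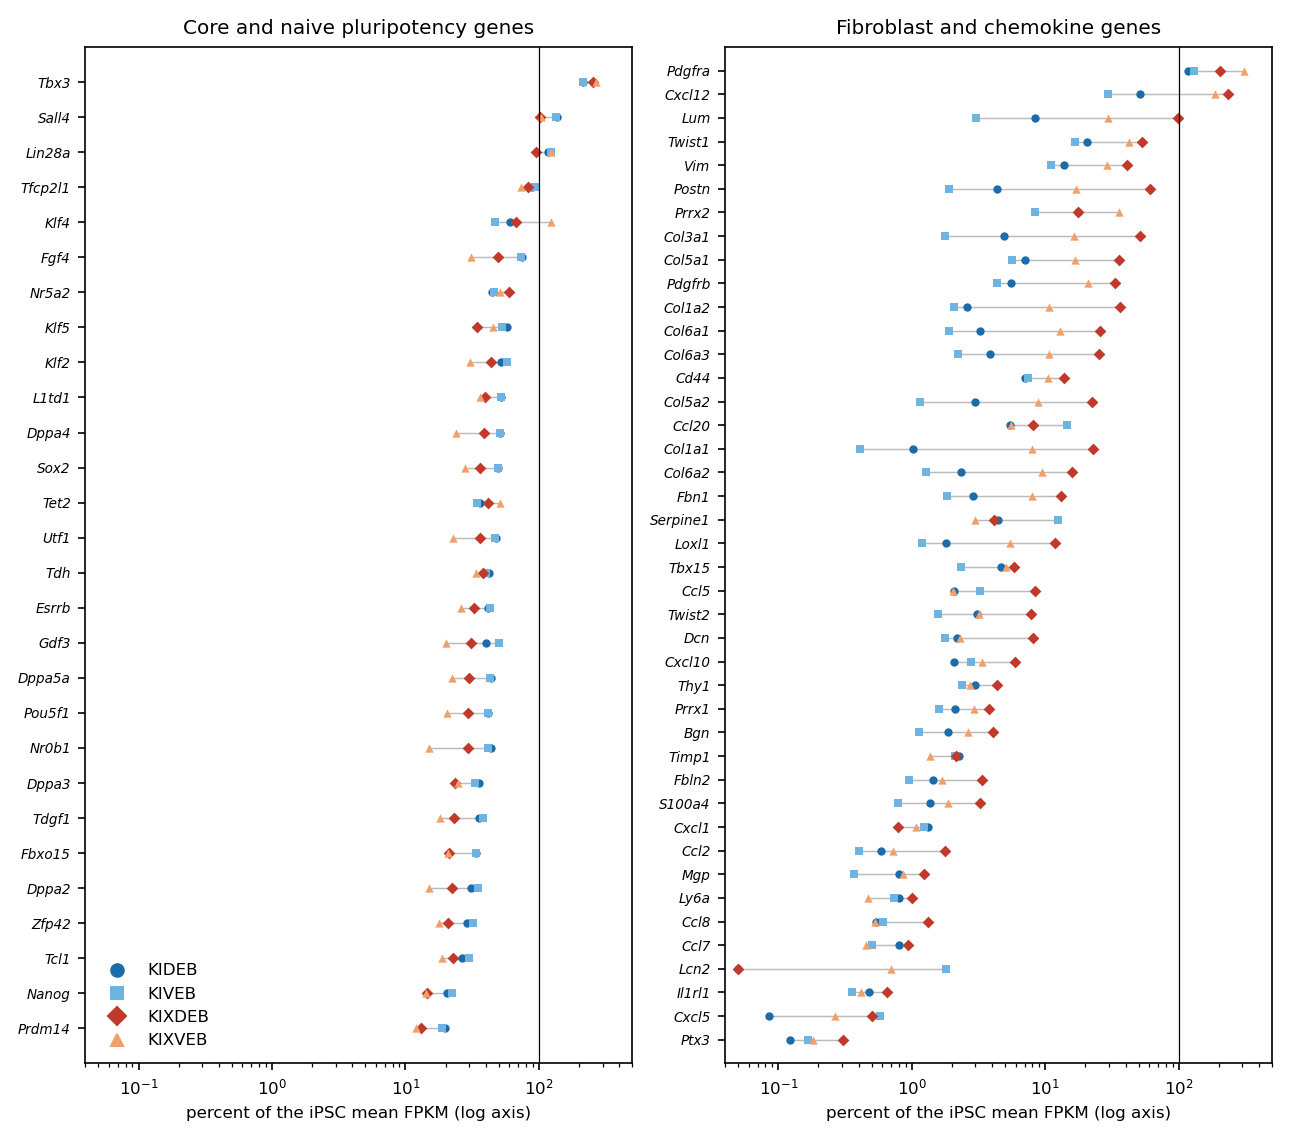
Percent of the iPSC mean FPKM left in each EB library (x axis, log scale) for core and naive pluripotency genes (left) and for fibroblast, chemokine and cytokine genes (right) with an iPSC mean of at least 5 FPKM, 1 line a gene. No pluripotency gene is under 12% in any EB library, while most genes on the right lie under 10% in the KI EB libraries and move right in KIXDEB. Values under 0.05% are drawn at 0.05%, which holds for Lcn2, listed at 0 in KIDEB and KIXDEB.

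EB libraries differed in what was left of the fibroblast genes. Of 32 genes in both fibroblast lists, 28 were highest in KIXDEB. How often KIXDEB was highest over all tested genes was not counted. In 27 of the 32 both KI EB libraries were lower than both KIX EB libraries, against 27.4% of all tested genes. Lum, lumican, was at 3.43, 1.24, 40.5 and 12.05 FPKM in KIDEB, KIVEB, KIXDEB and KIXVEB and at 18.5 to 82.6 in iPSCs, so KIXDEB kept 99.4% of the iPSC mean. Col3a1 was at 18.2, 6.59, 191 and 61.7 FPKM, against 208 to 692. Bgn, biglycan, by contrast, was at 7.87, 4.75, 17.0 and 11.1 FPKM, against 296 to 655.

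The summed level of the 32 fibroblast genes was 144 to 888 FPKM in EBs and 3497 to 6917 in iPSCs. Growth on feeders went with the iPSC libraries throughout, so the loss of feeder RNA and a change in the stem cells themselves cannot be told apart for these genes. The collagens are also made by mesoderm and its descendants. KIXDEB was the highest EB library for the embryonic globins, Hand1 and Hand2, and KIXVEB for contraction genes. In 8 of 10 streak and nascent mesoderm genes, some also known from anterior visceral endoderm, and in Gata1, both KI EB libraries were higher. The part of mesoderm and its descendants in the fibroblast levels was not tested.

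Markers of other cells that such cultures can hold were lower in EBs or mixed. Of 7 tested macrophage and leukocyte genes 4 fell and 1 rose, with a median of -1.12, but 1 fell without KIDEB (DEB replicate 1), 2 without KIVEB and 1 without both. Lyz2, lysozyme, was at 0.438, 0, 2.80 and 1.31 FPKM in the EB libraries and at 14.5 to 60.2 in iPSCs. Tyrobp and Cd52 were at 5.99 and 5.42 FPKM in KIXDEB, within their iPSC ranges, and at most 0.233 in the KI EB libraries. The summed level of the list was 16.7 to 38.8 FPKM in EBs and 32.1 to 82.6 in iPSCs. Aif1 was listed at 0 in all 4 EB libraries, and Ptprc and Emr1 in both KI EB libraries. Aif1 and Ptprc did not reach the level to be tested in iPSCs either, so their levels describe no loss. Emr1 was at 0.921 to 2.45 FPKM in iPSCs. Cd68, a lysosomal glycoprotein, was the member that rose, at 14.6 to 16.6 FPKM, against 4.12 to 8.97.

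Of 6 smooth muscle genes 1 fell and 0 rose, with a median of 0.21, and Actg2 and Acta2 rose without the KI EB libraries. Tagln was at 4.26, 3.88, 10.8 and 8.41 FPKM in EBs and at 19.2 to 170.0 in iPSCs. Acta2, at 15.5 to 57.6 FPKM in EBs and 9.62 to 128 in iPSCs, had no call.

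Of the 1941 risen genes 121 (6.23%) differed by 4-fold or more between the highest and lowest EB library. KIXVEB was the highest in 67 of them and KIXDEB in 44, with 7 in KIVEB and 3 in KIDEB. Of the fallen genes 316 differed by that much or were listed at 0 in some EB library. These include genes at 0 in every EB library, which do not differ. KIXDEB was the highest in 177 of the 316, levels near 0 among them. The heart, globin, liver and collagen genes named above as uneven were highest in KIXVEB or KIXDEB. For Actc1, Myl3 and Myh6 KIXVEB alone stood apart, and for Hbb-y and Hbb-bh1 KIXDEB alone. What separates the libraries beyond their titles is not given, and its part was not tested.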

How the data were processed

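Polyadenylated RNA of 16 libraries was analysed from the FPKM table that the authors deposited, in which each column matched a title. The submitters' processing notes name Cufflinks 2.2.1, TopHat2 2.0.10, SAMtools 0.1.19, FastQC and Bowtie 1.0.0, with build GRCm38 (mm10). Settings and annotation version are not given in the sources used here. FPKM is relative to the library, so abundant new transcripts lower the rest, and reads shared by near-identical genes can be split. An exact 0 can be a failed estimate. Low values (38058 of them, from 3231 genes) were a whole multiple of their gene's lowest value, within 0.1, in 27.4% of cases, so read counts could not be rebuilt. Depth and counting error are unknown, and a count model was not fitted.

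A pseudocount of 1 was added before taking log2, and limma 3.58.1 under R 4.3.3 gave the tests (empirical Bayes with trend, two-sided, Benjamini-Hochberg over 13895 genes). Libraries with the same letter and the same ending formed 8 groups of 2, KI as replicate 1 and KIX as replicate 2. The contrast was the mean of the EB groups minus the mean of the iPSC groups, with 1 shared estimate of the spread. The scripts were tested on simulated data. Over genes, same-prefix deviations of EB and iPSC groups had r between -0.115 and 0.081, and no pairing by prefix was assumed. D and V EB libraries of 1 prefix correlated with r = 0.317, so the 4 EB libraries are not fully independent.

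The members and the 23 lists (288 genes, 286 in the table) were chosen with earlier results of these data known. Lists are described by counts, with no test over a list, and some genes of the lists are not reported here by name. Named genes are the 6 largest rises and falls without overlap, up to 5 called genes a list with the largest change, the 10 highest genes switched on and off, and a fixed few; predicted genes and small RNAs were left out. Names outside this rule were chosen after their values were seen: Onecut1, Alb, Trf, Cdx1, Cdh1, Sparc, Mesp1, Hba-x, Pax6, Sox1, Tbx3, Klf4, Sall4, Lin28a, Dnmt3b, Pdgfra, Fap, Cxcl12, Cxcl1, Lcn2, Lum, Col3a1, Ptprc, Aif1, Acta2, Actg2, Ascl2, Tpbpa, Pou3f1, Etv2, Msgn1, Nid1, Rhox5 and the gene families. The share of the iPSC mean left was taken over genes with an iPSC mean of at least 5 FPKM. Promoter windows and starts are from RefSeq (GRCm38.p6), and Col1a1 and Ccl2 were among the genes looked up. So were Afp and Apoa1, whose windows held none of the 7 motifs counted. The FOXA motif (TGTTTAC) was in 2 of 21 plasma protein genes with a window, against 3.65% of all windows. The HNF4 motif (CAAAGTCCA) was in 0 of 21, against 0.475%. Among endoderm factors with a window, FOXA was in 1 of 7 and HNF4 in 0 of 7. Alternatives were other pseudocounts, filters, scalings and groupings, single iPSC numbers and leaving out libraries. Leaving out both KI or both KIX EB libraries was added after the data were seen.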

Additional observations from a re-analysis of the deposited data

Results flagged for a closer look

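Groups of 4 EB libraries were examined, each the library values of a list or named gene. In 10 of 145 groups the highest or lowest library stood apart from the other 3 by Dixon's criterion. Chance gives this in about 1 of 20 groups, a share not far from the one found. Genes that vary together, such as the contraction genes and the globins, are not independent groups. KIXVEB stood apart in 6 of the 10 groups, KIXDEB in 3 and KIVEB in 1. KIXVEB was high for the contraction genes Actc1 (310.3 FPKM), Myl3 (99.4), Myl2 (85.1) and Myh6 (68.6). It was low for the lysosomal hexosaminidase gene Hexa (219.8 FPKM, against 250.2 to 254 in the others) and for Timp1 (5.996 FPKM, against 9.36 to 9.92). KIXDEB was high for the embryonic globins Hbb-y (29.6 FPKM) and Hbb-bh1 (24.1) and for the chemokine Ccl8 (2.46 FPKM, against 0.990 to 1.13). KIVEB was high for the germ-line gene Taf7l (0.764 FPKM, against 0.361 to 0.409). Without the library that stood apart, Actc1, Myl3 and Myh6 still rose.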

How the results depend on the processing

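The counts of genes risen, fallen, switched on, switched off and past the test alone stayed within 1.5 times their values under all 31 alternatives. Risen and fallen genes numbered 2528 and 2280 with a pseudocount of 0.1, 1717 and 1712 after quantile normalization, and 1928 and 1549 with D and V averaged. With single libraries left out, risen genes ranged from 1837 to 2033, fallen genes from 1526 to 1698, switched-on genes from 305 to 344 and switched-off genes from 304 to 343. The replicate block by prefix, which is no pairing here, gave 1940 and 1618. Without the KI EB libraries 2085 rose and 1716 fell, and without the KIX EB libraries 1817 and 1509.

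Of 121 named genes 107 were tested and kept their call under every alternative. Hbb-y, Isl1 and Rbp2 kept it wherever they were tested, but did not reach the level to be tested with 1 FPKM asked in 4 or more libraries, without KIXDEB, without KIXVEB or without both. The other 11 lost it under some alternative. Hbb-bh1 lost it most often, with adjusted p from 1.27e-05 to 0.17 over the alternatives (0.0501 with the replicate block). Otx2 (0.88 against number 1), Kdr (0.89) and Tfap2c (-0.91), both against number 10, and Cd68 (0.80) fell under the 2-fold size. Cer1 lost its call with D and V averaged (1.90, adjusted p = 0.152 by limma) and against number 4. Zic5, Emr1, Tyrobp and Cd52 lost it when single libraries were left out, and Hand2 without KIXDEB. Some list counts moved as well. With a pseudocount of 0.1, 5 trophoblast genes rose and 2 fell, 4 neural and 2 streak genes fell, and 1 endothelial gene, Etv2, fell. Against number 1 alone 2 genes fell in each of the streak, parietal endoderm and smooth muscle lists, with Msgn1, Nid1 and Acta2 added. Against number 4 Acta2 rose, and against number 10 5 trophoblast genes rose and 0 fell. Without the KIX EB libraries 2 parietal endoderm genes fell, Nid1 among them. Apart from genes left untested, the causes were not tested. With 2 libraries a group and unknown depth, levels under 1 FPKM carry little precision.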

Other observations

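Some genes that were nearly lost are X-linked or belong to families of germ-line-type genes, a pattern seen in the data first and given as counts. Of the tested genes with a known chromosome 3.89% lie on the X chromosome, against 8.58% of fallen genes, 12.1% of switched-off genes and 19.4% of the 160 such genes with under 5% of the iPSC mean left in every EB library. Among risen genes the share was 4.04% and among switched-on genes 2.89%. The 31 X-linked genes with under 5% left include 6 Xlr, 3 Rhox and 3 Mage genes. All 10 tested Xlr genes, X-linked genes related to a protein of meiotic chromosomes, reached 1 FPKM in 2 libraries among iPSCs only. So did 8 of 9 Mage genes and 6 of 9 Rhox genes. The same held for 5 of 7 Slfn genes and all 6 of the Ifi20 and Mnda group, which are not X-linked and not counted here as germ-line-type. Those genes could hardly do other than fall, so counts over these families lend no support of their own. The same limit holds for the X-linked share of fallen and nearly lost genes, as far as these families enter it. Xlr3a was at 0.0277, 0.0496, 0.0550 and 0.277 FPKM in the EB libraries and at 4.79 to 10.4 in iPSCs. Rhox1, a homeobox gene, was at 0.248 to 0.927 FPKM, against 15.1 to 29.0. Mageb16 was at 4.28 to 8.06 FPKM, against 28.8 to 48.7. Members of these families are near copies, so reads can be split among them and single genes are uncertain.

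Of 8 germ-line genes 7 fell and 0 rose, with a median of -1.73, and 4 of the 8 reached the level to be tested in iPSCs only. Mael, which acts in transposon silencing in the germ line, was at 1.38, 1.67, 0.920 and 1.27 FPKM in the EB libraries and at 12.2, 16.2 and 24.6 in iPSCs (-2.94 ± 0.16, adjusted p = 4.33e-08 by limma). Sycp1, of the synaptonemal complex, was at 1.24 to 1.78 FPKM, against 8.69 to 22.3, and Dazl, a germ-cell RNA-binding protein, at 0.638 to 1.31, against 3.90 to 10.4. Usp26, an X-linked ubiquitin protease gene of testis, was among the 10 highest switched-off genes, at 0.120 to 0.655 FPKM, against 13.9 to 38.7. Interferon-induced genes were lower too. Ifi202b was at 0.321, 0.520, 1.24 and 0.459 FPKM, against 9.02 to 68.0. All 3 Ifit genes fell, and Ifit1 was at 0.962, 1.80, 6.51 and 3.06 FPKM, against 7.18 to 236. The interferon-induced genes moved with the fibroblast lists between EBs and iPSCs, and the part of feeder RNA in them was not tested.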
